A study of Saccharomyces cerevisiae with 4 samples.

Results

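The ADE genes of Saccharomyces cerevisiae encode the enzymes that build purine nucleotides. Their transcript levels were compared between the translocant yeast strain D10 Small and the parental strain WT San I. The genes were found by their systematic names among the 6256 genes probed on each array, and all 10 were present: YMR300C (ADE4), YGL234W (ADE5,7), YDR408C (ADE8), YGR061C (ADE6), YOR128C (ADE2), YAR015W (ADE1), YLR359W (ADE13), YMR120C (ADE17), YNL220W (ADE12) and YGR204W (ADE3). Each had 1 probe with 7 spots per array, and every probe was above background in both channels on all 4 arrays, so none of the 10 entered the test through 1 channel alone.

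De novo purine synthesis assembles the purine ring stepwise on phosphoribosyl pyrophosphate (PRPP) and ends at inosine monophosphate (IMP), from which separate branches lead to AMP and GMP. Formyl groups carried on tetrahydrofolate enter the ring at separate steps, which ties the pathway to one-carbon metabolism. In yeast the ADE genes are activated by the transcription factors Bas1 and Pho2 when purines are short, and they are held low when adenine is taken up from the medium. Mutants in ADE1 or ADE2 are known for the red pigment they accumulate, which makes both genes common markers in yeast strains.

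D10 Small was grown in YPD, a rich glucose medium, with the aminoglycoside kanamycin at 200 mkg/ml. WT San I was grown in YPD, and the labels name kanamycin for D10 Small alone, so strain and drug cannot be told apart. Both were harvested at an optical density of 0.4 to 0.5. Each of 4 arrays carried RNA of 1 biological replicate of D10 Small in Cy3 against RNA of pooled WT San I in Cy5. Without a dye swap, dye effects of single genes and strain differences cannot be told apart. The pool counts as 1 sample, and its own spread enters no test. The labels give neither the alleles at the ADE loci nor the ploidy of the strains.

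The arrays resembled each other, with Pearson's r from 0.975 to 0.990 across genes, which are not independent replicates. The median raw spot intensity was 304 to 444 in the D10 Small channel and 120 to 261 in the channel of the pool. Beside the ADE results, 5 of 5 haploid-specific marker genes were called higher in D10 Small, where 43.2% of all tested genes were. Their ratios ran from 1.26 for STE18 to 3.37 for STE4 on the log2 scale. Of the mitochondrial genes OLI1, COB and COX1, 0 gave signal over background in the D10 Small channel, against 3 in the channel of the pool on each array. Of all gene probes, 91.8% to 93.2% gave such signal in the D10 Small channel. The part of these strain differences in the ADE results was not tested. Ratios in the following are D10 Small over pool, as mean ± SD over 4 arrays on the log2 scale, after an offset that draws dim genes toward 0.

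The ADE genes did not move as 1 block. Transcripts of ADE17, ADE4, ADE8, ADE12 and ADE2 were higher in D10 Small, those of ADE6, ADE13 and ADE1 were lower, and ADE5,7 and ADE3 did not pass the test (limma, Benjamini-Hochberg adjusted p under 0.05 over 5794 genes). The count of 5 higher members of 10 stands beside 43.2% of all tested genes called higher, and the count of 3 lower members beside 39.5% called lower, so both shares lie near the background. The median ratio of the 10 genes was 0.20, against 0.02 for all tested genes, and the median size of the ratio without its sign was 0.38, against 0.31. At least 2-fold differences were seen for ADE17 as higher and ADE6 as lower, where 6.23% and 3.05% of all genes were called at this size. In a test against a minimum fold of 1.2 (limma treat), ADE17, ADE4, ADE8 and ADE12 were called higher and ADE6 alone lower, beside 24.6% and 19.9% of all genes.

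**Figure D1:**
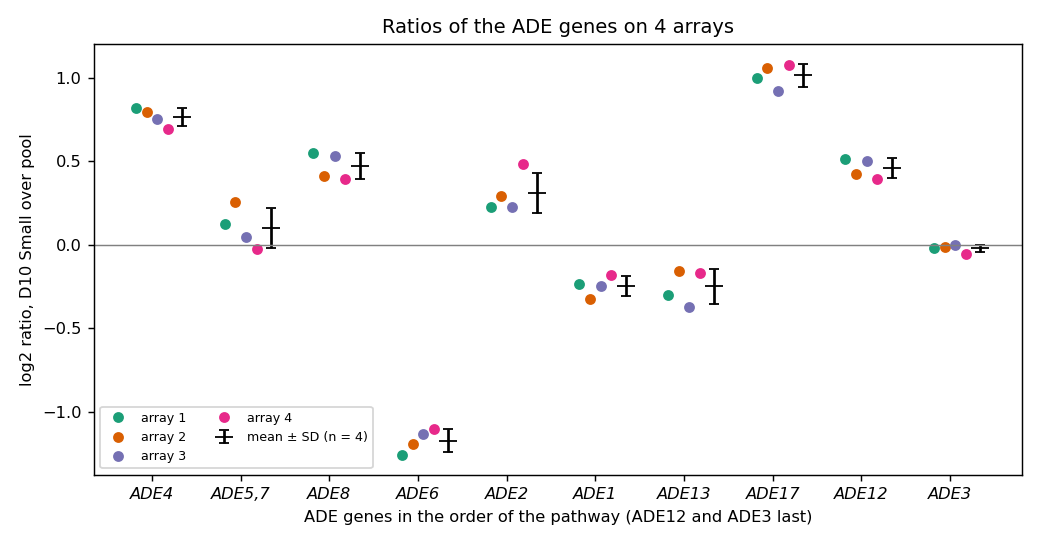
Log2 ratio of D10 Small over the pool for each ADE gene on each of the 4 arrays, with the mean and SD (n = 4) as bars. ADE17 and ADE4 lie highest and ADE6 lowest on every array.

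The transcript for the entry enzyme of the pathway was higher. ADE4 encodes PRPP amidotransferase, which catalyses the first committed step, and its ratios were 0.82, 0.79, 0.75 and 0.69 on the 4 arrays. The mean of 0.77 ± 0.06 is a 1.70-fold difference (limma adjusted p = 3.39e-07). Its normalised intensities of 1561 to 1673 in D10 Small and 926 to 970 in the pool did not overlap. Such separation of both channels was seen for 8 of the 10 ADE genes, beside 76.8% of all tested genes.

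Steps that follow it differed from each other. ADE5,7 encodes a bifunctional enzyme that acts on both sides of the steps of ADE8 and ADE6, and its ratios were 0.13, 0.25, 0.05 and -0.03. Its intensities of 2215 to 2360 in D10 Small and 1979 to 2267 in the pool overlapped. The mean of 0.10 ± 0.12 missed the threshold (limma adjusted p = 0.0814), with a 95% interval from -0.01 to 0.21. Without array 2 it was 0.049 (limma adjusted p = 0.371), and by the net ratio of the scanner files 0.013. It passed as higher without array 4, at 0.14 with limma adjusted p = 0.0275, and as lower with median centring, at -0.17 with limma adjusted p = 0.0295, so its direction depends on the scaling. ADE8, the glycinamide ribonucleotide formyltransferase, takes the first formyl group from tetrahydrofolate, and its ratios were 0.55, 0.41, 0.53 and 0.39. Its intensities were 716 to 876 in D10 Small and 545 to 605 in the pool, so the channels were apart on all arrays. The mean of 0.47 ± 0.08 is a 1.39-fold difference (limma adjusted p = 9.00e-06).

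ADE6 went the other way and had the lowest ratio of the 10 on every array. It encodes formylglycinamidine ribonucleotide synthetase, a glutamine-using enzyme that acts directly after ADE8. Its ratios were -1.26, -1.20, -1.13 and -1.10, a mean of -1.17 ± 0.07 (limma adjusted p = 7.45e-08). Normalised intensities were 526, 553, 575 and 553 in D10 Small, against 1262, 1267, 1263 and 1189 in the pool. All 28 spots of the probe over the 4 arrays had a negative ratio, from -1.42 to -0.71. ADE6 stood at rank 5682 of 5794 tested genes counted from the highest ratio, within the lowest 2.0%.

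**Figure D2:**
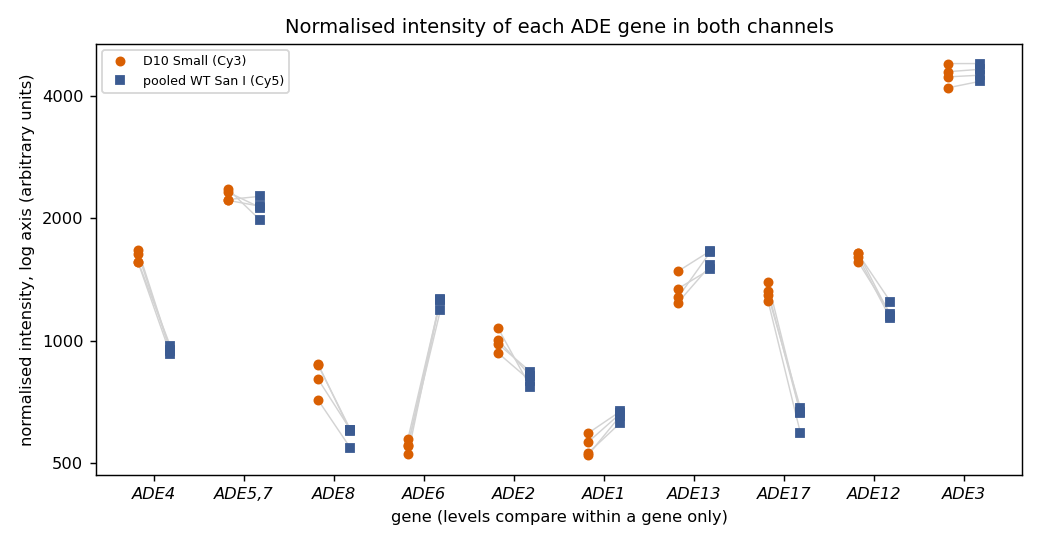
Normalised intensity (log axis, arbitrary units) of each ADE gene in the D10 Small channel (circles) and the pool's channel (squares), with lines joining the channels of 1 array. Only ADE5,7 and ADE3 have overlapping channels, and levels of different genes are not comparable.

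ADE2 and ADE1 act in succession and differed in direction. ADE2, the aminoimidazole ribonucleotide carboxylase, had ratios of 0.23, 0.29, 0.23 and 0.48, with array 4 the highest. Its mean was 0.31 ± 0.12, a 1.24-fold difference (limma adjusted p = 0.000439), and its intensities were 934 to 1076 in D10 Small and 770 to 840 in the pool. ADE1, the SAICAR synthetase, had ratios of -0.23, -0.32, -0.25 and -0.18. Its mean was -0.25 ± 0.06 (limma adjusted p = 0.000229), with intensities of 523 to 593 in D10 Small and 629 to 671 in the pool. With median centring ADE1 had -0.06 and limma adjusted p = 0.275. Both transcripts were measured above background in D10 Small and in the pool, and both differences were small and missed the test against a 1.2-fold minimum, with limma adjusted p = 0.370 for ADE2 and 1 for ADE1.

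The last steps of the pathway held the highest member. ADE13 encodes adenylosuccinate lyase, which acts both in IMP synthesis and in the branch to AMP, and its ratios were -0.30, -0.16, -0.37 and -0.17. The mean of -0.25 ± 0.10 passed (limma adjusted p = 0.000893), but not against the 1.2-fold minimum. ADE17 encodes an AICAR transformylase and IMP cyclohydrolase, which takes up the other formyl group and closes the ring. Its ratios were 1.0, 1.06, 0.92 and 1.08, a mean of 1.02 ± 0.07 or 2.02-fold (limma adjusted p = 1.28e-07). Normalised intensities were 1326, 1392, 1298 and 1256 in D10 Small, against 664, 667, 684 and 595 in the pool. All 25 spots used were positive, from 0.75 to 1.21, and ADE17 stood at rank 352 of the tested genes.

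ADE16, which encodes the paralogous isozyme of Ade17, did not pass the test. Its ratios were -0.10, -0.05, 0.05 and 0.00, with a mean of -0.02 ± 0.07 and a 95% interval from -0.11 to 0.06 (limma adjusted p = 0.531), and with median centring its mean was 0.11. The ratio of ADE17 exceeded that of ADE16 by 1.10, 1.12, 0.87 and 1.07 on the arrays, a mean difference of 1.04 ± 0.11. An exact two-sided sign-flip permutation test over 4 arrays gave p = 0.125, the smallest it can give, and the same after adjustment over the 2 paralog pairs compared. Probe sequences were not used here, so signal shared between the probes of the paralogs was not tested.

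ADE12 and ADE3 lie beside the main chain. ADE12 encodes adenylosuccinate synthase, which opens the AMP branch, and its ratios were 0.51, 0.42, 0.50 and 0.39. Its mean was 0.46 ± 0.06, a 1.37-fold difference (limma adjusted p = 5.71e-06), with intensities of 1567 to 1648 in D10 Small and 1136 to 1249 in the pool. ADE13, which completes that branch, was lower, as given above. ADE3 encodes the cytoplasmic trifunctional C1-tetrahydrofolate synthase, which supplies the formyl groups. Its ratios were -0.02, -0.01, -0.00 and -0.05, a mean of -0.02 ± 0.02 with a 95% interval from -0.09 to 0.05 (limma adjusted p = 0.504), and its intensities of 4190 to 4806 in D10 Small and 4349 to 4807 in the pool overlapped. The value for ADE3 rests on the scaling. It was called lower with median centring, at -0.63 with limma adjusted p = 2.90e-05, and with the net ratio of the scanner files, at -0.15 with limma adjusted p = 0.0105. The paralog of ADE3 for the mitochondrial enzyme, MIS1, had -0.28 ± 0.07, and ADE3 exceeded it by 0.26 ± 0.05, with the same exact permutation p = 0.125, but by median centring ADE3 was the lower, with a difference of -0.28.

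The order of the ADE genes was nearly the same on all arrays. ADE17 was first, ADE4 second, ADE5,7 in place 6, ADE3 in place 7 and ADE6 last on each of them. ADE8, ADE12 and ADE2 exchanged places 3 to 5, with ranges that overlapped, and ADE1 and ADE13 exchanged places 8 and 9. For 9 of the 10 genes the sign was the same on all 4 arrays, ADE5,7 being the exception, beside 87.2% of all tested genes. The 9 include ADE3, which had a ratio of only -1e-04 on array 3. Of its 26 spots used, 12 were positive and 14 negative. Spots of 1 probe within an array had a mean SD from 0.10 to 0.14 over the 10 genes, and the SD between arrays ran from 0.02 for ADE3 to 0.12 for ADE2.

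**Figure D3:**
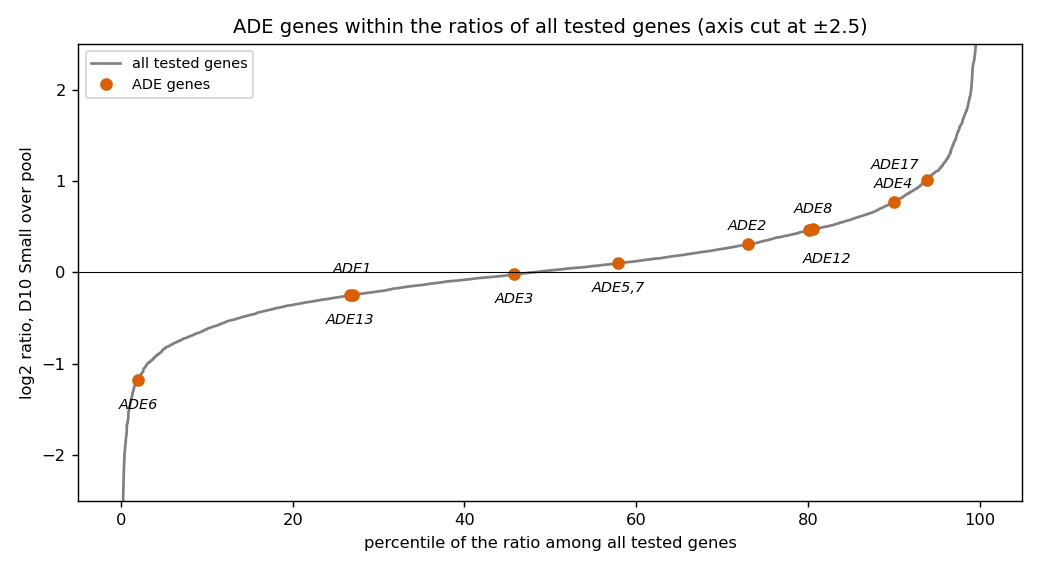
Log2 ratio of all 5794 tested genes against their percentile (grey line, axis cut at 2.5 either side), with the ADE genes as points. The ADE genes spread from the percentile of 2.0 for ADE6 to that of 93.9 for ADE17.

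The chromosome neighbourhood differed between the ADE genes. They lie on 7 chromosomes, with ADE5,7, ADE6 and ADE3 on VII, and ADE4 and ADE17 on XIII. Each was set beside the 10 nearest tested genes on either side, in the gene order of the R64 assembly. Of all tested genes, 39.5% were called lower and 43.2% higher. Neighbours called lower numbered 13 of 20 for each of ADE1, ADE12 and ADE13, and 12 for ADE17. They numbered 7 for ADE4, 8 for ADE5,7, 9 for ADE8 and 3 for ADE2, which had 12 higher neighbours. Medians of the neighbours were -0.41 for ADE1 and 0.39 for ADE2. Of the 20 neighbours of ADE6, 14 were called lower and 3 higher, with a median of -0.31. ADE6 had a lower ratio than each of these 20 genes and differed from their median by -0.83 ± 0.10. With the net ratio of the scanner files 5 of the 20 had lower ratios than ADE6, and 2 had in the authors' value table. Its nearest tested neighbours were ERG25, a sterol synthesis gene, with 0.58 ± 0.14 and COX18, which acts in cytochrome oxidase assembly, with -0.34 ± 0.10.

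ADE3 lay in a stretch of mostly lower genes, which was known from earlier results of these data. Of its 20 neighbours, 17 were called lower and 3 higher, beside 39.5% and 43.2% of all tested genes. Their median was -0.64, and ADE3 stood 0.62 ± 0.08 above that median and above 17 of the 20 genes. With median centring its distance from the neighbours turned to -0.084, and 7 of the 20 had lower ratios. The nearest tested neighbours YCH1 and TDA10 had -0.15 ± 0.08 and -0.24 ± 0.06. ADE17, ADE4 and ADE12 likewise exceeded the medians of their neighbours, by 1.17 ± 0.05, 0.77 ± 0.08 and 0.73 ± 0.10. ADE8 exceeded its neighbours by 0.46 ± 0.13. For ADE5,7 the difference was 0.14 ± 0.12, which turned to -0.26 with median centring. For ADE1 it was 0.17 ± 0.08, or 0.51 by the net ratio of the scanner files. ADE2 and ADE13 differed from theirs by -0.07 ± 0.17 and -0.06 ± 0.13, with either sign over the alternatives, from -0.21 to 0.041 for ADE2 and from -0.14 to 0.074 for ADE13. These differences are descriptions, and no test was made of them.

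**Figure D4:**
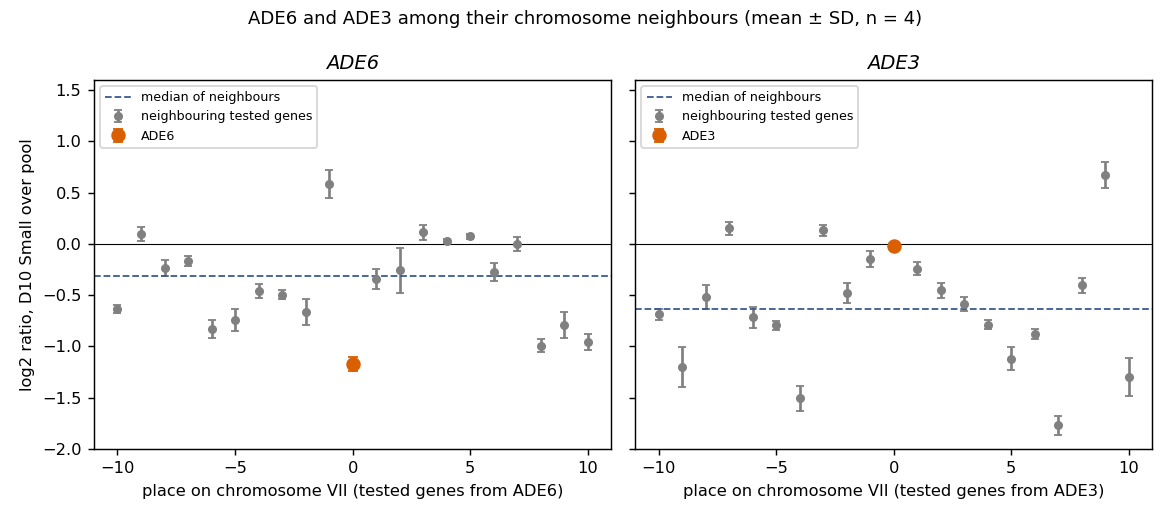
Log2 ratio (mean ± SD, n = 4) of ADE6 and ADE3 and of the 10 tested genes on either side along chromosome VII, with the median of those neighbours as a dashed line. ADE6 lies below all 20 neighbours and ADE3 above 17 of 20, or above 7 of 20 with median centring in place of the loess values drawn here.

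Other purine genes were set beside the ADE genes in 6 lists. Of 48 such genes, all tested, 22 were called higher and 20 lower, near the 43.2% and 39.5% of all genes. Their median ratio was 0.06. Among the regulators, BAS1, which encodes the Myb-type activator of the ADE genes, was higher with ratios of 1.08, 0.99, 1.19 and 0.97, a mean of 1.06 ± 0.10 (limma adjusted p = 2.11e-07). PHO2, for its homeodomain partner, was lower with -0.96, -0.73, -0.77 and -0.54, a mean of -0.75 ± 0.17 (limma adjusted p = 1.09e-05). GCN4, the activator of amino acid synthesis genes, was higher with 0.68 ± 0.19. Transcript levels give no measure of the activity of these proteins.

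The PRPP synthetase genes, which supply the substrate of ADE4, divided. PRS5 was higher with 0.84 ± 0.01 and PRS1 with 0.41 ± 0.10, while PRS3, PRS2 and PRS4 were lower, from -0.52 for PRS3 to -0.23 for PRS4. With median centring PRS1 turned to -0.22 (limma adjusted p = 0.00864), and PRS3 and PRS2 had -0.27 each. PRS4 lost its call against the 1.2-fold minimum (limma adjusted p = 1).

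Of the 4 genes listed for the branch to GMP, 3 were lower, beside 39.5% of all genes, and 1 was higher. IMD2, an inducible gene for IMP dehydrogenase, was the higher one with ratios of 2.11, 1.86, 1.78 and 1.49, a mean of 1.81 ± 0.25 or 3.51-fold (limma adjusted p = 4.82e-07). The size for IMD2 depends on the processing, with a log2 ratio of 2.94 in the value table of the authors, 3.90 by the net ratio of the scanner files and 2.72 when no background was corrected. Its paralogs IMD4 and IMD3 had -0.76 ± 0.08 and -0.28 ± 0.04, and GUA1, the GMP synthetase gene, had -0.27 ± 0.14, or -0.95 with median centring. Against the 1.2-fold minimum, IMD3 and GUA1 lost their calls, with limma adjusted p = 0.535 and 0.781. IMD2 was thus the highest of these genes on every array, and signal shared between probes of the IMD paralogs was not tested.

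One-carbon genes, which feed the formylation steps of ADE8 and ADE17, were higher for 6 of 10 and lower for 3, beside 43.2% and 39.5% of all genes, with a median of 0.53 against 0.02 for all genes. GCV1, of the glycine cleavage complex, had 1.70 ± 0.11. MTD1, a methylene-tetrahydrofolate dehydrogenase, had 1.01 ± 0.09. SHM2, the cytosolic serine hydroxymethyltransferase, had 0.93 ± 0.05, and the dihydrofolate reductase gene DFR1 had 0.75 ± 0.15. The mitochondrial counterpart SHM1, named after its value was seen, had -0.29 ± 0.07, beside MIS1 with the ratio given above. Of the other genes in the list, LPD1 and GCV2 were higher with 0.68 ± 0.06 and 0.37 ± 0.09. FAU1 was the lowest with -0.42 ± 0.11, and GCV3 did not pass, with 0.00 ± 0.17. Against the 1.2-fold minimum, SHM1 and MIS1 lost their calls, with limma adjusted p = 0.407 and 0.530.

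Salvage, uptake and interconversion genes were called higher for 7 of 18 and lower for 8, shares near the 43.2% and 39.5% of all genes. APT2, a paralog of the adenine phosphoribosyltransferase gene APT1, had 1.10 ± 0.07, against -0.69 ± 0.02 for APT1 itself. FCY2, the purine and cytosine permease, was higher with 0.94 ± 0.13, or 0.35 with median centring, and the guanylate kinase gene GUK1 was lower with -0.89 ± 0.23. Histidine synthesis releases AICAR, the substrate of Ade17, and its genes were higher for 4 of 7 and lower for 2, beside the same background shares. HIS5, an aminotransferase of that pathway, led with 2.23 ± 0.10, followed by HIS3 with 1.12 ± 0.09 and HIS7 with 0.71 ± 0.08. HIS2 had 0.35 ± 0.04, or 0.57 with median centring. HIS6 and HIS1 were lower with -0.24 ± 0.03 and -0.20 ± 0.06, and HIS4 did not pass, with 0.09 ± 0.11.

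**Figure D5:**
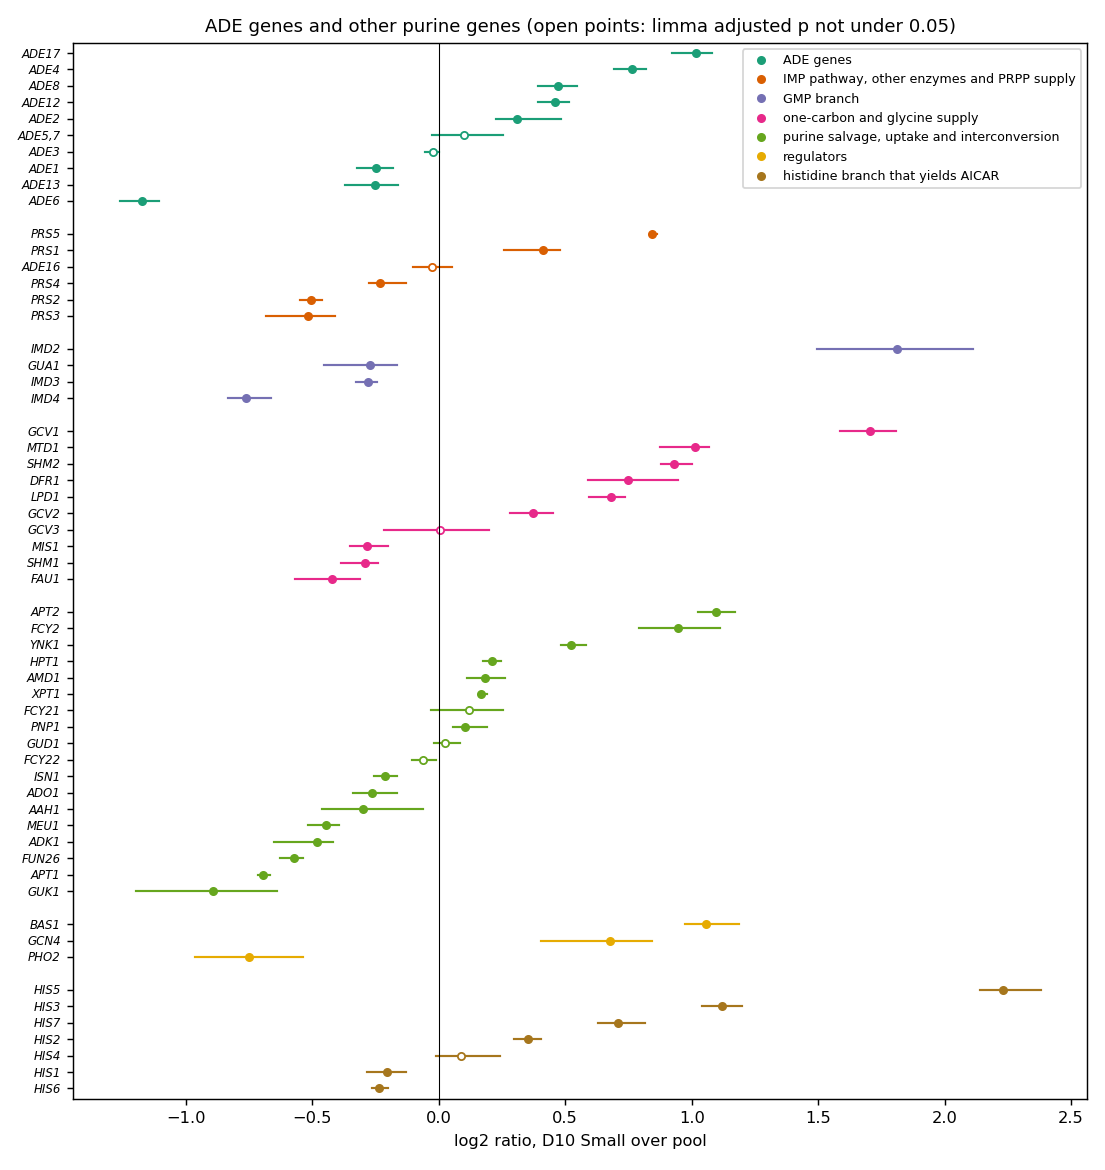
Mean log2 ratio (points) and range over the 4 arrays (lines) for the ADE genes and for 48 other purine-related genes in 6 lists. Open points mark genes whose limma adjusted p was not under 0.05, and genes on either side of 0 occur in every list.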

How the data were processed

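Per the file headers, the deposited scanner files hold spot and background intensity on a linear scale for both channels and a net log2 ratio whose channel scaling is not named. The software of the scanner is not given in the sources used here. Log2 ratios of unstated normalisation fill the authors' deposited value table, with array medians from -0.00570 to 0.00265. Its r of 0.965 to 0.972 with the ratios used here sets the direction as D10 Small over pool.

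Mean intensities were corrected with limma 3.58.1 (R 4.3.3) by normexp with an offset of 50 and normalised by loess within arrays, with control spots at weight 0. Spots beyond the quartiles of a probe's 7 spots by 1.42 interquartile ranges were left out (5.88% to 7.93% of spots), and the others were averaged. Signal over background meant a net signal more than 2.6 SD over the mean of 153 negative controls for most spots of a probe. These marks were computed because the files hold none. A gene was tested when either channel reached this level on 3 or more arrays, which held for 5794 of 6256. Ratios were tested against 0 with lmFit and eBayes, adjusted by Benjamini-Hochberg over all tested genes. Channel intensities were scaled by Aquantile after loess. The procedure was tested on simulated data in which a small share of bright genes was changed in either direction and the others were not. Changes in most genes or in whole chromosome stretches were not simulated. The number of arrays limits the precision.

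The ADE genes and the partner lists were chosen with earlier results of these data known. The neighbour comparison was planned because those results placed ADE6 and ADE3 in a lower stretch of chromosome VII. All 10 ADE genes, ADE16, the regulators and IMD2 were to be named whatever their value, with up to 4 called genes of largest ratio per list, the nearest tested neighbours of ADE3 and ADE6 and the marker genes. PRS4, MIS1, SHM1, LPD1, GCV2, GCV3, FAU1, HIS1, HIS4 and HIS6 were named after their values were seen. Symbols and gene order came from the R64 table, where ADE5,7 is written ADE57. The array's build is not stated, so no coordinates are printed. Promoter motifs were not analysed here. Alternatives changed the background correction, scaling, ratio source, spot handling, filter, test threshold and replicates.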

Additional observations from a re-analysis of the deposited data

Results flagged for a closer look

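Of 38 sets of 4 array values examined, 3 held an array far from the others by Dixon's criterion, which chance gives in about 1 of 20 sets. PRS1 had 0.26 on array 4, below the other arrays at 0.45 to 0.48. MTD1 had 0.87 on array 3, below the other arrays at 1.04 to 1.07. PRS4 had -0.13 on array 3, above the other arrays at -0.27 to -0.26. It was named after its value was seen, so the 38 sets were not all fixed beforehand. LPD1, GCV2, GCV3, FAU1, HIS1, HIS4 and HIS6, also named after their values were seen, were not examined. None of the 10 ADE genes met the criterion, and neither did their median.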

How the results depend on the processing

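ADE17, ADE4, ADE8, ADE12 and ADE6 kept their direction and their call under all 14 alternatives. Their ratios ran from 0.99 to 1.09, 0.74 to 0.79, 0.45 to 0.62, 0.39 to 0.48 and -1.31 to -1.06. Alternatives of the filter and of the test threshold kept the same ratios, so only the call could change under them. Against a minimum fold of 1.2, lower calls dropped to 1 ADE gene and to 10 of 48 partner genes. Those over all tested genes dropped likewise, from 2286 to 1154 or 19.9%. The net ratio of the scanner files gave an ADE median of 0.13, and leaving out 1 array gave medians from 0.18 to 0.23. With median centring ADE5,7 reversed to -0.17, PRS1 to -0.22, ADE3 minus its neighbours to -0.084 and ADE3 minus MIS1 to -0.28, and the cause was not tested. Alternatives for the neighbour and paralog differences were added after seeing the data. ADE6 minus its neighbours was -0.68 without background correction, with median centring and with both channels above background on all arrays, -0.67 in the table of the authors and -0.57 by the net ratio. ADE3 minus its neighbours was 0.79 without background correction, 0.74 with an offset of 16, 0.85 in the value table and 0.86 with the net ratio. Leaving out 1 array gave -0.86 to -0.80 for ADE6 and 0.60 to 0.66 for ADE3. Without array 4, ADE5,7 was called and 6 ADE genes were higher, beside 2451 of 5794 tested genes. Each ratio pairs D10 Small with the pool on 1 array, and no pairing with single WT San I replicates was possible. With no dye swap and 1 pool, neither dye effects of single genes nor the spread of WT San I could be measured.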
